A study of Mus musculus with 13 samples.

Results

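Cytokines of the interleukin-1 (IL-1) family and the epithelial alarmins, with the receptor chains of IL-1, were followed across 13 mouse mammary tumour cell lines. They were taken by gene symbol as the rows of Il1a, Il1b, Il1rn, Il18, Il33, Tslp, Il6, Il1r1 and Il1rap, 9 of the 23845 genes in the deposited tables. The study compared 6 wild-type (WT) with 7 JNK knockout lines, all from tumours of FVBN/J mice, in work on JNK in HER2-driven breast cancer. The kinases of the JNK family respond to stress and phosphorylate c-Jun. Both groups were grown alike, first on collagen I in 2% serum for 2 passages and then on standard dishes in 10% serum with 20 ng/ml EGF and 10 μg/ml insulin, with no added cytokine in the protocol. The labels leave unsaid which members of the JNK family were deleted and which promoter or transgene drove the tumours. They also leave unsaid whether the lines are clones, or whether any lines share an animal. The p-values treat the lines as independent and set the group difference against the spread between these lines. They may be too small if lines share an animal. No age is given. Titles of the 2 groups carry different letters, whose meaning the labels do not state, and those of WT replicates 4 and 5 share a number.

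IL-1α (Il1a) and IL-1β (Il1b) are agonists that bind the receptor chain encoded by Il1r1, which then recruits the accessory chain encoded by Il1rap and signals through MyD88 and NF-κB. The receptor antagonist (Il1rn) binds the same receptor without signalling. IL-33, TSLP and IL-1α are known as alarmins because epithelial cells of skin, lung and gut release them on damage, and IL-33 and TSLP act on lymphoid and myeloid cells of type 2 immunity. IL-18 is held as a precursor in epithelial cells until a caspase cleaves it, and IL-6 is a common product of cells that respond to IL-1.

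Of the 9 members, 8 had enough reads for a test, 2 rose and 2 fell in knockout lines, and 4 did not pass. Il1a and Il33 rose, and Tslp and Il1rap fell. Il1a had enough reads for a test only through the knockout lines, where it was high. Its call is therefore no support for a direction of the members. Among all 13058 genes tested, 8.51% were called at an adjusted p under 0.05 (edgeR's quasi-likelihood test, Benjamini-Hochberg adjustment over all genes tested), 4.33% as higher and 4.17% as lower. The median log2 fold change of all tested genes was 0.0076. The 2 groups were fully apart in 0 of the 8 members and in 4.05% of all tested genes (2.08% higher and 1.97% lower in knockout lines). Levels are given as CPM, read counts brought to a common library size, for comparisons between lines, and as TPM, which is scaled for transcript length, for comparisons between genes.

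Libraries held between 38298602 and 46689809 expected counts per line. Mapk8 and Mapk9, which encode JNK1 and JNK2, lay below the WT range in each of the 7 knockout lines (log2 fold change -2.37, SE 0.19, and -1.63, SE 0.19, adjusted p = 9.1e-05 and 0.00091, edgeR). The epithelial keratin genes Krt8 and Krt18 were at 351 CPM or more in every line. Epcam and Cdh1 were lowest in knockout replicate 2, at 40.8 and 92.3 CPM. The next lowest lines were knockout replicate 3 for Epcam (266 CPM) and knockout replicate 4 for Cdh1 (311 CPM). WT lines ranged from 509 to 1407 CPM for Epcam and from 595 to 953 CPM for Cdh1. Among the 12 leukocyte markers in the table, Ms4a1, Cpa3 and Siglecf had 0 reads in all 13 lines and Ptprc, the pan-leukocyte antigen CD45, did not exceed 0.178 CPM. Summed over the 12 markers, TPM ran from 82.3 to 300.1 in WT and from 42.9 to 656 in knockout lines, of which Cd14, an endotoxin co-receptor gene, gave 64.1 to 236.5 and 6.93 to 592.9 TPM. The 5 endothelial markers summed to at most 1.11 TPM in any line. The 8 fibroblast markers summed to between 4.79 and 162 TPM in WT and between 0.98 and 16.7 TPM in knockout lines, with WT replicate 3 the highest. By test, 2 of 6 epithelial markers rose (Krt5 and Krt14) and 2 fell (Krt8 and Krt18). Of 4 tested leukocyte markers 0 passed, and 2 of 7 tested fibroblast markers fell (Col1a1 and Col1a2). An unadjusted p under 0.05 (edgeR) was found for 5 of 6 epithelial, 0 of 4 leukocyte and 4 of 7 fibroblast markers. Median log2 fold changes of these lists were -0.84, 0.09 and -2.67.

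**Figure D1:**
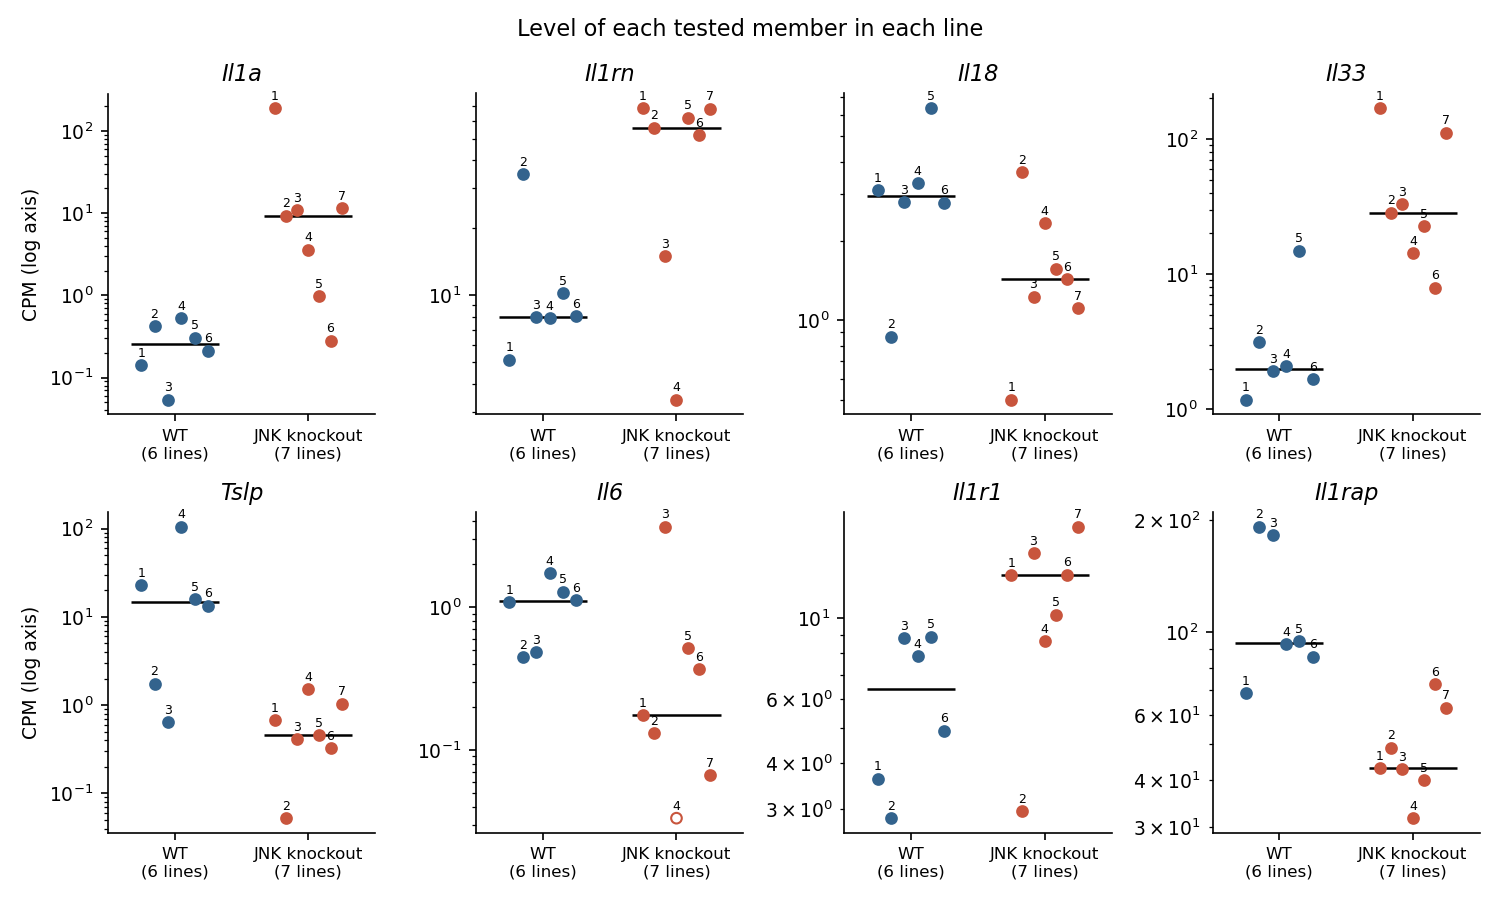
CPM on a log axis of each of the 8 tested members in the 6 WT lines (blue) and the 7 knockout lines (red). Points are single lines marked with their replicate number, black bars are group medians, and the open point is a line with 0 reads of Il6. Il1a and Il33 sit higher and Tslp and Il1rap lower in most knockout lines, with overlap between the groups in every panel.

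Il1a, the gene for the agonist IL-1α (chromosome 2, 129299609 to 129310186, GRCm38), was close to silent in WT lines. The WT lines ranged from 0.0539 to 0.528 CPM with a median of 0.259, on 2 to 24 reads per line. The filter on low counts asks for 0.244 CPM in 6 lines, which 3 WT lines and all 7 knockout lines reached. Il1a thus passed this filter only through the knockout lines, where it was high. Knockout lines ranged from 0.281 to 190.2 CPM with a median of 9.35. Knockout replicate 1 stood far above the others at 190.2 CPM and held 83.4% of the group's reads, replicates 7, 3 and 2 were at 11.6, 10.8 and 9.35 CPM, and replicates 4 and 5 at 3.61 and 0.974 CPM. Knockout replicate 6, at 0.281 CPM, was the single knockout line inside the WT range. The log2 fold change was 6.84 (SE 1.5, adjusted p = 0.016, edgeR), with 6 of 7 knockout lines above every WT line. It was 4.45 without knockout replicate 1 (adjusted p = 0.018) and stayed called in all 13 fits that left out 1 line. The call was lost with limma-voom (4.57, adjusted p = 0.20) and on log2(TPM + 1) without a filter (2.60, adjusted p = 0.11). Over the alternatives that tested Il1a, adjusted p ran from 1.4e-07 to 0.20. The gene was too low for a test with a filter of CPM above 1 in at least 6 lines. The same held on log2(TPM + 1) with a filter and on log2(TPM + 0.1).

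Il33, the gene for the nuclear alarmin IL-33 (chromosome 19, 29925113 to 29960718), rose as well. It was between 1.18 and 14.9 CPM in WT lines with a median of 2.00, and between 7.94 and 169 CPM in knockout lines with a median of 28.4. WT replicate 5 held 63.5% of the WT reads, and the other 5 WT lines, at 3.14 CPM or less, lay below every knockout line. As for Il1a, knockout replicate 1 was the highest and knockout replicate 6 the lowest of its group, and replicate 7 was second at 111 CPM. On the log2 scale Il33 rose by 3.73 (SE 0.87, adjusted p = 0.021, edgeR). Leaving out WT replicate 5 gave 4.78 (adjusted p = 0.0094) and leaving out knockout replicate 1 gave 3.14 (adjusted p = 0.041). The call was lost with limma-voom alone among the alternatives (3.58, adjusted p = 0.066, range of adjusted p over all alternatives 1.5e-05 to 0.066).

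Markers of other cell states were read in the same lines. Krt5 and Krt14, which mark basal epithelium, rose in knockout lines, and in knockout replicate 1 they were at 2655 and 1990.3 CPM. Krt5 was highest in knockout replicate 2 at 12403 CPM, where Il1a and Il33 were at 9.35 and 28.4 CPM. Among knockout lines Krt5 was lowest in replicate 6 at 84.2 CPM, where Il1a and Il33 were lowest too. Krt14 was also highest in knockout replicate 2, at 8337 CPM. In knockout replicate 6 Krt14 was at 2069 CPM, and its lowest knockout line was replicate 4 at 313 CPM. Cd14 was 554 and 260.2 CPM in knockout replicates 1 and 7, against 157 CPM or less in the other knockout lines and 52.1 to 191.5 CPM in WT. Of other leukocyte markers in those lines, Ptprc had 0 reads in both and Csf1r was at 0 and 1.62 CPM (WT 0.044 to 6.32). Cd68, at 12.2 and 11.3 CPM, lay inside the WT range of 2.16 to 18.7 CPM. Lyz2 and Itgam had few reads. Lyz2 was at 0.025 and 0.311 CPM, against at most 0.189 CPM in WT. Itgam was at 0.175 and 0.0888 CPM, against at most 0.0612 CPM in WT. The part of the keratin genes and of Cd14 in the rise of Il1a and Il33 was not tested. Fewer cells of a type and less RNA per cell cannot be told apart in such bulk libraries.

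The promoters of the 2 genes that rose are shown because JNK phosphorylates JUN, which binds the AP-1 motif as a dimer. Windows reach from 250 bases before to 50 bases after the RefSeq start on GRCm38.p6 and were held for 8 of the 9 members, all but Tslp, in 12 windows. Capitals mark matches on either strand to AP-1 (TGANTCA), CRE (TGACGTCA), the NF-κB motif or the TATA box (TATAAA). Il33 has 2 annotated starts. The windows lie at chr2:129309923-129310222 on the minus strand for Il1a, and at chr19:29924863-29925162 and chr19:29945540-29945839 on the plus strand for Il33. The span given for Il1a ends at 129310186, inside its window, so the start used is not the outermost RefSeq boundary of the gene.
Il1a: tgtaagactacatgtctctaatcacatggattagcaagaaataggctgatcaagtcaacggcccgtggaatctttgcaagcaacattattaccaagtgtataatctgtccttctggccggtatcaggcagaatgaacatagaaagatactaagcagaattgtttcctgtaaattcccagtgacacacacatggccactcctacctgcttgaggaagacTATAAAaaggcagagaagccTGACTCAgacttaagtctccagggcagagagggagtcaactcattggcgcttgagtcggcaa
Il33, first start: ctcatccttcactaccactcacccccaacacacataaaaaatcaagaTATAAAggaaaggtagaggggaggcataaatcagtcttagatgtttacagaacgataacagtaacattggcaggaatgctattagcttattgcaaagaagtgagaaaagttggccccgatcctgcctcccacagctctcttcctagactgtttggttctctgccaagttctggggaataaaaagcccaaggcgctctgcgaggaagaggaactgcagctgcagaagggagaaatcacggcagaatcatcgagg
Il33, second start: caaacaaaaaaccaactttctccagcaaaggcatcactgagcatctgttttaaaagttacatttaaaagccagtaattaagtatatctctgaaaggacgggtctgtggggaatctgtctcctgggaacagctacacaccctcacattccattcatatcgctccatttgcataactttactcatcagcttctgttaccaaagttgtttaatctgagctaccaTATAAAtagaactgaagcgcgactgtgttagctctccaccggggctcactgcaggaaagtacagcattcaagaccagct
The Il1a window held TGACTCA, a match to AP-1, 12 to 6 bases before the start, and TATAAA 32 to 27 bases before it. Neither Il33 window matched AP-1, and the second held TATAAA 29 to 24 bases before the start. AP-1 was matched in 3 of the 12 member windows, those of Il1a, Il6 and the first start of Il1rn, and in 7.81% of all 32851 windows in the table. The TATA box was matched in 6 of the 12 and in 13.6% of all, the NF-κB motif in 1 (Il6) and in 5.80%, and CRE in 0 and in 1.79%. These are letters in short windows and say nothing of binding in these cells.

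Il1b, the second agonist gene, was next to absent. It had 0 reads in all 6 WT lines, which allows up to 3 reads over the group or 0.0116 CPM for counting error only. Knockout replicates 7, 1 and 3 had 5, 3 and 2 reads, and the other 4 knockout lines had 0. The gene was too low for a test. The 3 lines with reads were also the 3 lines with the most Il1a.

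Il1rn, which encodes the receptor antagonist (chromosome 2, 24336860 to 24351491), did not pass the test. It ranged from 5.15 to 34.8 CPM in WT lines with a median of 8.0, and from 3.40 to 68.6 CPM in knockout lines with a median of 56.1. Knockout replicates 1, 7, 5, 2 and 6 lay between 51.7 and 68.6 CPM, above every WT line, whereas knockout replicate 3 was at 14.9 CPM and knockout replicate 4, at 3.40 CPM, was below every WT line. WT replicate 2, at 34.8 CPM, was apart from the other WT lines at 10.2 CPM or less. With a log2 fold change of 1.91 (SE 0.63, 95% interval 0.68 to 3.15 before adjustment) the adjusted p was 0.074 (edgeR). The gene passed without WT replicate 2 (2.56, adjusted p = 0.025), without knockout replicate 4 (2.12, adjusted p = 0.025) and with DESeq2 (1.91, adjusted p = 0.013), in a range of adjusted p over all alternatives from 0.013 to 0.19.

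Per length, the antagonist outweighed Il1a in every WT line, where the TPM of Il1rn was 11.6 to 114 times that of Il1a. In knockout lines the ratio ran from 0.281 to 145 with a median of 4.57. Il1a exceeded Il1rn in 2 of 7 knockout lines, replicate 1 (167 against 47 TPM) and replicate 4 (3.38 against 2.49 TPM), and the 2 were nearly level in replicate 3 (9.98 against 10.8 TPM). Knockout replicates 5 and 6, at ratios of 50 and 145, lay above the WT median of 29.0. The ratio was not tested, since both genes enter it.

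Il18, the gene for a caspase-processed cytokine (chromosome 9, 50554700 to 50581841), did not pass either. WT lines ranged from 0.866 to 6.38 CPM with a median of 2.96 and knockout lines from 0.499 to 3.64 CPM with a median of 1.43. WT replicate 2 was the lowest WT line at 0.866 CPM and knockout replicate 2 the highest knockout line at 3.64 CPM, and the ranges overlapped widely. The log2 fold change was -0.93 (SE 0.48, 95% interval -1.86 to 0.01, adjusted p = 0.23, edgeR).

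Tslp, which encodes thymic stromal lymphopoietin, an alarmin of barrier epithelium, fell. WT lines ranged from 0.647 to 105.4 CPM with a median of 14.7, and knockout lines from 0.0524 to 1.52 CPM with a median of 0.460. WT replicate 4 was the highest at 105.4 CPM and held 66.4% of the WT reads, followed by replicates 1, 5 and 6 at 23.0, 15.9 and 13.4 CPM and replicate 2 at 1.76 CPM. WT replicate 3, at 0.647 CPM, was inside the knockout range and was also the line with the most fibroblast marker RNA, whose part in its Tslp level was not tested. The log2 fold change was -5.37 (SE 1.06, adjusted p = 0.010, edgeR), with 5 of 6 WT lines above every knockout line. Without WT replicate 4 it was -4.09 (adjusted p = 0.022), and the call held in all 13 fits that left out 1 line. The call was lost with limma-voom (-4.39, adjusted p = 0.13, range of adjusted p over all alternatives 3.8e-08 to 0.13).

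Il33 and Tslp thus lay on opposite sides in the 2 groups. The TPM of Il33 exceeded that of Tslp in all 7 knockout lines, by 3.68 to 204 times with a median of 31.4. In WT lines the ratio of Il33 to Tslp was between 0.00785 and 1.18 with a median of 0.209, and was above 1 in WT replicate 3 alone. No ratio in one group reached the range of the other. Both genes had been called in the same comparison, so this is a description of the lines and not a further test.

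**Figure D2:**
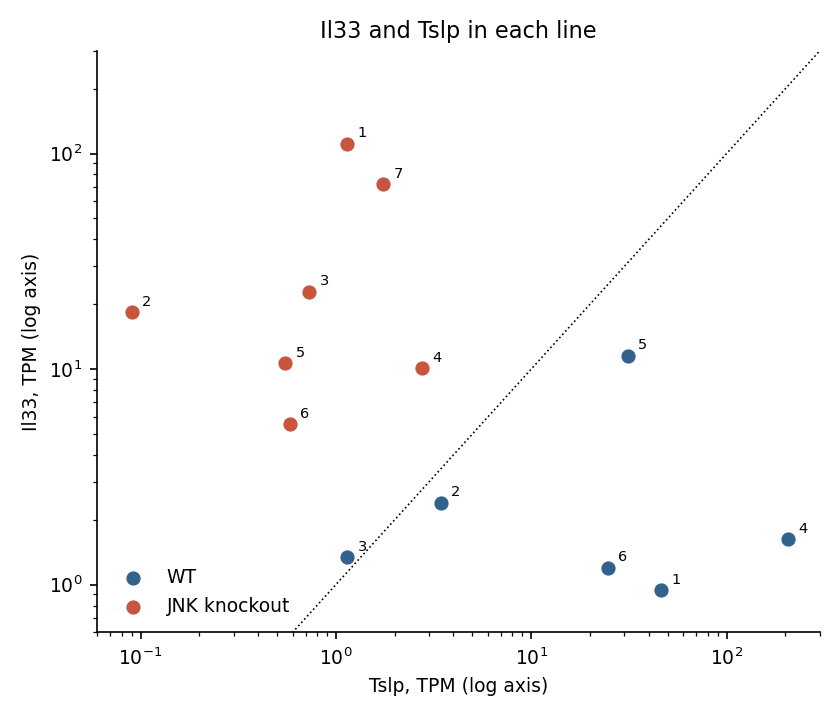
TPM of Il33 against TPM of Tslp, both on log axes, in the 6 WT lines (blue) and 7 knockout lines (red), each marked with its replicate number. The dotted line marks equal TPM, and all 7 knockout lines lie above it, as does WT replicate 3 with a ratio of 1.18.

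Il6 (chromosome 5, 30013114 to 30019975) was low in both groups. WT lines ranged from 0.445 to 1.72 CPM with a median of 1.10 and knockout lines from 0 to 3.66 CPM with a median of 0.175. In 5 of 7 knockout lines Il6 was below every WT line, while knockout replicate 3, at 3.66 CPM, was the highest of all 13 and held 74.9% of the knockout reads. Its log2 fold change of -0.54 had an SE of 0.97 and a 95% interval from -2.44 to 1.35 (adjusted p = 0.76, edgeR). Without knockout replicate 3 the log2 fold change was -2.27 (adjusted p = 0.087).

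Il1r1, the signalling receptor chain for IL-1 (chromosome 1, 40222480 to 40316201), did not pass the test. WT lines ranged from 2.83 to 8.89 CPM with a median of 6.39 and knockout lines from 2.96 to 17.8 CPM with a median of 13.1. In 5 of 7 knockout lines the level was above every WT line, and knockout replicate 2, at 2.96 CPM, was near the lowest WT line. Its log2 fold change was 0.91 (SE 0.39, 95% interval 0.14 to 1.68 before adjustment, adjusted p = 0.16, edgeR). It passed only without both knockout replicate 2 and WT replicate 3, of the alternatives run (1.21, adjusted p = 0.047, edgeR). That fit was added after the data were seen. It left out the lowest knockout line and a WT line near the top of its range, at 8.81 CPM. The range of adjusted p over all alternatives was 0.047 to 0.36.

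Il1rap, the accessory chain shared by the receptors for IL-1, IL-33 and IL-36 (chromosome 16, 26581509 to 26730128), fell. WT lines ranged from 68.6 to 192.0 CPM with a median of 93.7, and knockout lines from 31.7 to 72.6 CPM with a median of 43.1. WT replicates 2 and 3 were the highest at 192.0 and 181.7 CPM. The groups met in 1 pair of lines, WT replicate 1 at 68.6 CPM and knockout replicate 6 at 72.6 CPM, and 6 of 7 knockout lines were below every WT line. The log2 fold change was -1.29 (SE 0.27, adjusted p = 0.013, edgeR), a 2.44-fold lower level. It lay between -1.44 and -1.10 in all alternatives, with adjusted p from 0.00035 to 0.034, and was the one member called under each of them. Membrane and soluble forms of this chain are known, and gene totals do not separate them. Its window, at chr16:26581455-26581754 on the plus strand, is shown because the gene was the member called under every alternative. The span given for the gene begins inside this window, so the start used is not its outermost RefSeq boundary. The window held none of the 4 motifs, and neither did the 2 windows of Il1r1. AP-1 was matched in the windows of Il1a, which rose, and of Il1rn and Il6, which did not pass. It was not matched in those of Il33, which rose, or of Il1rap, which fell. The part of the motif in these changes was not tested.
Il1rap: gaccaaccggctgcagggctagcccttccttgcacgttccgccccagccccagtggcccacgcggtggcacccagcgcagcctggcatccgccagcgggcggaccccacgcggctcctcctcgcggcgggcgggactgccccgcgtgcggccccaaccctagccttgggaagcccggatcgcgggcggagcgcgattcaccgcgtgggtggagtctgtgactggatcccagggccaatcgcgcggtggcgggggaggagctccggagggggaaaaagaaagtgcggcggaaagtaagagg

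**Figure D3:**
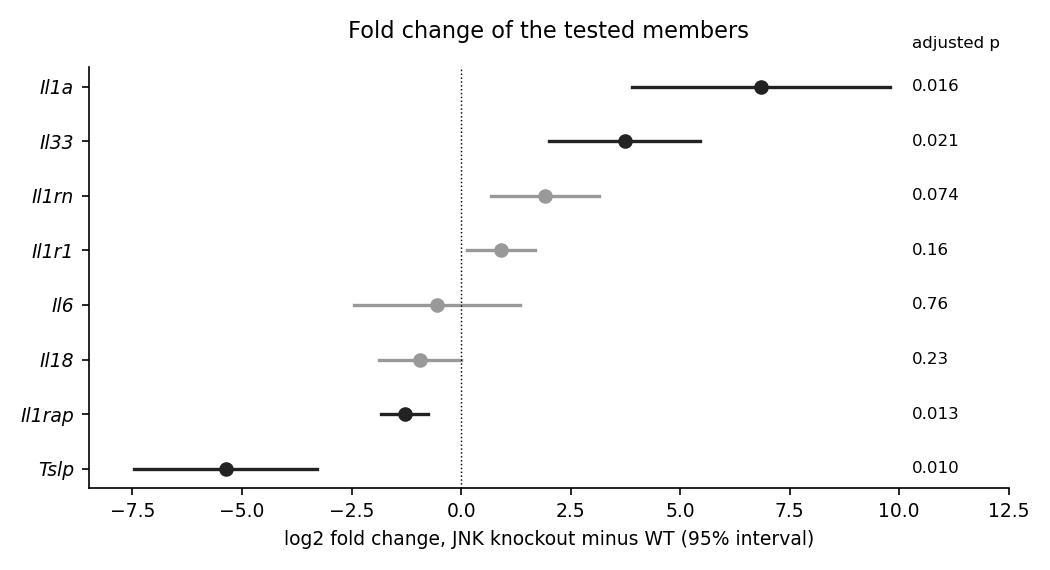
Log2 fold change (knockout minus WT) of the 8 tested members, with 95% intervals from the approximate standard error and adjusted p at the right. Dark points passed an adjusted p of 0.05: Il1a at 6.84 and Il33 at 3.73 were higher, Il1rap at -1.29 and Tslp at -5.37 lower.

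The order of levels per length differed between the groups. By median TPM, WT lines ranked Il1rap (39.8), Tslp (27.9), Il18 (8.06), Il1rn (6.13), Il1r1 (2.44), Il6 (2.23), Il33 (1.48), Il1a (0.255) and Il1b (0). Knockout lines ranked Il1rn (37.6), Il33 (18.3), Il1rap (16.3), Il1a (8.03), Il1r1 (4.38), Il18 (3.10), Tslp (0.730), Il6 (0.310) and Il1b (0). In WT lines, neighbours in this order had ranges that did not overlap at Il1rn and Il1r1, at Il33 and Il1a, and at Il1a and Il1b. All other WT neighbours, and all neighbours in knockout lines, overlapped. The TPM of Il1rap was above that of Il1r1 in all 13 lines, by 11.4 to 74.5 times in WT lines and by 3.08 to 18.2 times in knockout lines. The highest knockout ratio was in replicate 2, and the other 6 were at most 5.96.

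**Figure D4:**
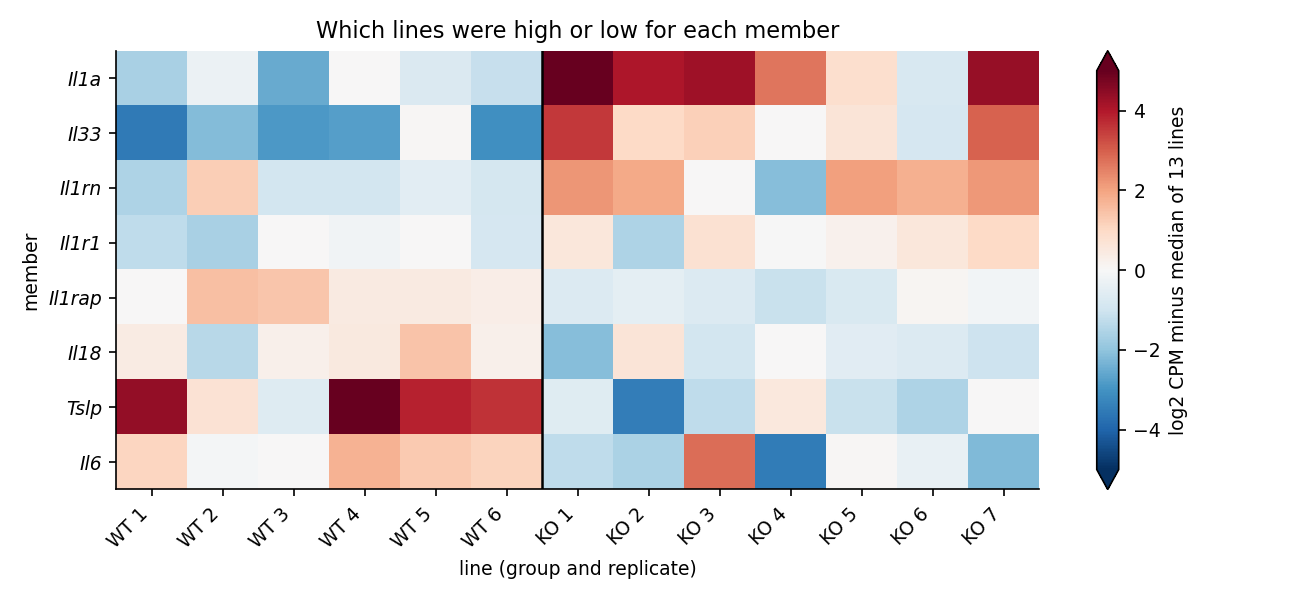
Log2 CPM (prior count 2) of each tested member in each line, minus that member's median over the 13 lines, with colours running from -5 to 5 and WT lines left of the black line. Knockout replicates 1 and 7 are high for both Il1a and Il33, and WT replicates 1, 4, 5 and 6 are high for Tslp.

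For each tested member, the genes with the most similar pattern over the 13 lines were sought among 11716 genes after the mean of each group had been removed. Il1rap was nearest to Stk40 (Pearson r = 0.95, Spearman rho = 0.97) and Arrb1 (r = 0.94), Tslp to Pitpnm1 (r = 0.94) and Srxn1 (r = 0.92), and Il1a to Capn10 (r = 0.91) and Nadk (r = 0.91). Il33 was nearest to Morn1 (r = 0.89) and Scel (r = 0.87), the gene for sciellin of the cornified envelope, and Il1r1 to Aass (r = 0.90) and Slc16a4 (r = 0.90). For Il18 they were Spred3 (r = 0.88) and P4ha3 (r = 0.84), for Il6 Nedd9 (r = 0.88) and Nomo1 (r = 0.81), and for Il1rn Fem1a (r = 0.86) and Pex6 (r = 0.84). Without the 2 lines farthest from the median of the member, r was 0.94 for Stk40 and 0.90 for Pitpnm1, and 0.53 for Nedd9 and 0.60 for Fem1a. These are the highest of 11716 values each over lines that share their group and culture, and are given as a description.

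The genes around the members were taken from 8 lists, given below by how many of their tested genes passed, beside 8.51% of all genes. Of 7 tested receptors, decoys and binding proteins, 0 rose and 2 fell (28.6%), with a median log2 fold change of -0.62 against 0.0076 for all genes. Both were chains of the IL-18 receptor. Il18r1, its ligand-binding chain, was 21.9 to 56.2 CPM in WT lines (median 36.6) and 1.15 to 8.76 CPM in knockout lines (median 4.57). The groups did not overlap and the log2 fold change was -3.13 (SE 0.47, adjusted p = 0.0029, edgeR), called in every alternative. Il18rap, its accessory chain, ranged over 5.5 to 16.5 CPM in WT lines against 0.821 to 6.58 CPM in knockout lines, with a difference of -1.76 on the log2 scale (SE 0.46, adjusted p = 0.032). It passed in 8 of the 13 leave-one-out fits. The receptor genes of IL-33 (Il1rl1) and TSLP (Crlf2) were at -0.36 and -0.23 with adjusted p of 0.81 and 0.59, and Il7r, the partner of Crlf2, had 0 WT reads and 3 knockout reads.

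Among 19 tested genes of MyD88 and IRAK signalling 0 rose and 2 fell (10.5%, median 0.07). Traf6, a ubiquitin ligase downstream of MyD88, ranged over 43.9 to 63.0 CPM in WT lines against 27.0 to 41.0 CPM in knockout lines, without overlap (log2 fold change -0.62, SE 0.14, adjusted p = 0.018, called in all alternatives). Ikbkb, the kinase IKKβ, fell by 0.44 on the log2 scale (adjusted p = 0.033) and passed in 4 of the 13 leave-one-out fits. None of 14 NF-κB subunits and inhibitors passed over all genes with edgeR (median -0.02), 2 of them had an unadjusted p under 0.05, and those 2, Tnfaip3 and Rela, did not pass in any alternative. Tnfaip3, the ubiquitin-editing inhibitor A20, ranged over 15.6 to 162 CPM in WT lines against 6.45 to 73.1 CPM in knockout lines, at a difference of -1.65 on the log2 scale (SE 0.67, adjusted p = 0.13).

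Of 14 tested inflammasome, pyroptosis and processing genes 1 rose and 1 fell (14.3%, median -0.02). Gsdma, the gene for the epidermal pore protein gasdermin A, had 3 reads in all WT libraries together and 852 in all knockout libraries, and was highest in knockout replicate 7 at 14 CPM (adjusted p = 0.012). It passed the filter on low counts through knockout lines alone (0 WT and 6 knockout lines at 0.244 CPM or more), was kept by the filter in 7 of the 13 leave-one-out fits, and is no support for a direction of the list. It was not called on log2(TPM + 1) without a filter (adjusted p = 0.22). Dfna5, which encodes gasdermin E, fell by 1.94 on the log2 scale (adjusted p = 0.038) and passed in 3 of the 13 leave-one-out fits. Casp1, the caspase that matures IL-1β and IL-18, averaged 46.6 CPM in WT lines against 40.6 CPM in knockout lines (adjusted p = 0.78). Nlrp3, Nlrp6 and Nlrc4 had 10 reads or fewer in each group, and Nlrp1a and Nlrp1b had 0.

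In the IL-6 family and JAK-STAT3 list 0 of 18 tested genes rose and 2 fell (11.1%, median -0.18). Osmr, the oncostatin M receptor chain, fell by 1.40 on the log2 scale (adjusted p = 0.049), and Adam17, the protease that sheds TNF and the IL-6 receptor, by 0.66 (adjusted p = 0.038). Osmr passed in 5 and Adam17 in 4 of the 13 leave-one-out fits. Per length, Lif, another cytokine of this family, averaged 87.5 TPM in WT and 83.9 TPM in knockout lines, where Il6 averaged 2.08 and 1.27 TPM. For the comparison of groups, Lif averaged 187.3 CPM in WT against 210.2 CPM in knockout lines (log2 fold change 0.17, adjusted p = 0.87, edgeR).

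Of 21 tested response genes of IL-1 and NF-κB 2 rose and 0 fell (9.52%, median -0.0006). Cxcl5, a neutrophil chemokine, was 7.35 to 124 CPM in WT lines (median 48.5) and 52.5 to 2079.5 CPM in knockout lines (median 485). The 2 highest lines were knockout replicates 1 and 7, as for Il1a and Il33, and the log2 fold change was 3.78 (SE 0.90, adjusted p = 0.022, edgeR). The call of Cxcl5 was lost on log2(TPM + 1) without a filter (adjusted p = 0.070). Zc3h12a, which encodes the mRNA-degrading RNase regnase-1, ranged over 7.89 to 12.6 CPM in WT lines against 10.1 to 120 CPM in knockout lines, again highest in replicates 1 and 7, with a difference of 2.00 on the log2 scale (SE 0.54, adjusted p = 0.038). Without knockout replicate 1 it was at 1.41 (adjusted p = 0.068), and it passed in 4 of the 13 leave-one-out fits. In all, 5 genes of this list had an unadjusted p under 0.05, and the other 3 did not pass: Cxcl3, another neutrophil chemokine gene, at 3.56 (adjusted p = 0.072), the matrix metalloproteinase gene Mmp3 at -2.35 (adjusted p = 0.098) and the adhesion molecule gene Vcam1 at -2.15 (adjusted p = 0.14). Cxcl1, Ptgs2 and Lcn2 were at 0.72, -0.68 and -1.32 (adjusted p = 0.46, 0.59 and 0.45).

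Of 7 tested other alarmins none passed with edgeR (2 at an unadjusted p under 0.05, median 0.19). Anxa1, the lipid-binding protein annexin A1, ranged over 365 to 981 CPM in WT lines against 492 to 2961 CPM in knockout lines, at a difference of 1.11 on the log2 scale (SE 0.40, adjusted p = 0.095). It passed with DESeq2 (adjusted p = 0.040), as it did when knockout replicate 6 was left out (1.27, adjusted p = 0.045). Hspd1, a mitochondrial chaperone, was at 0.39 (adjusted p = 0.12). In the list of other IL-1 family ligands only Il1f9, which encodes IL-36γ, had enough reads for a test. It ranged over 0 to 2.00 CPM in WT lines against 0.711 to 18.4 CPM in knockout lines, highest in replicates 7 and 1, at a difference of 2.88 on the log2 scale (SE 1.23, adjusted p = 0.16), and passed with DESeq2 (adjusted p = 0.044).

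**Figure D5:**
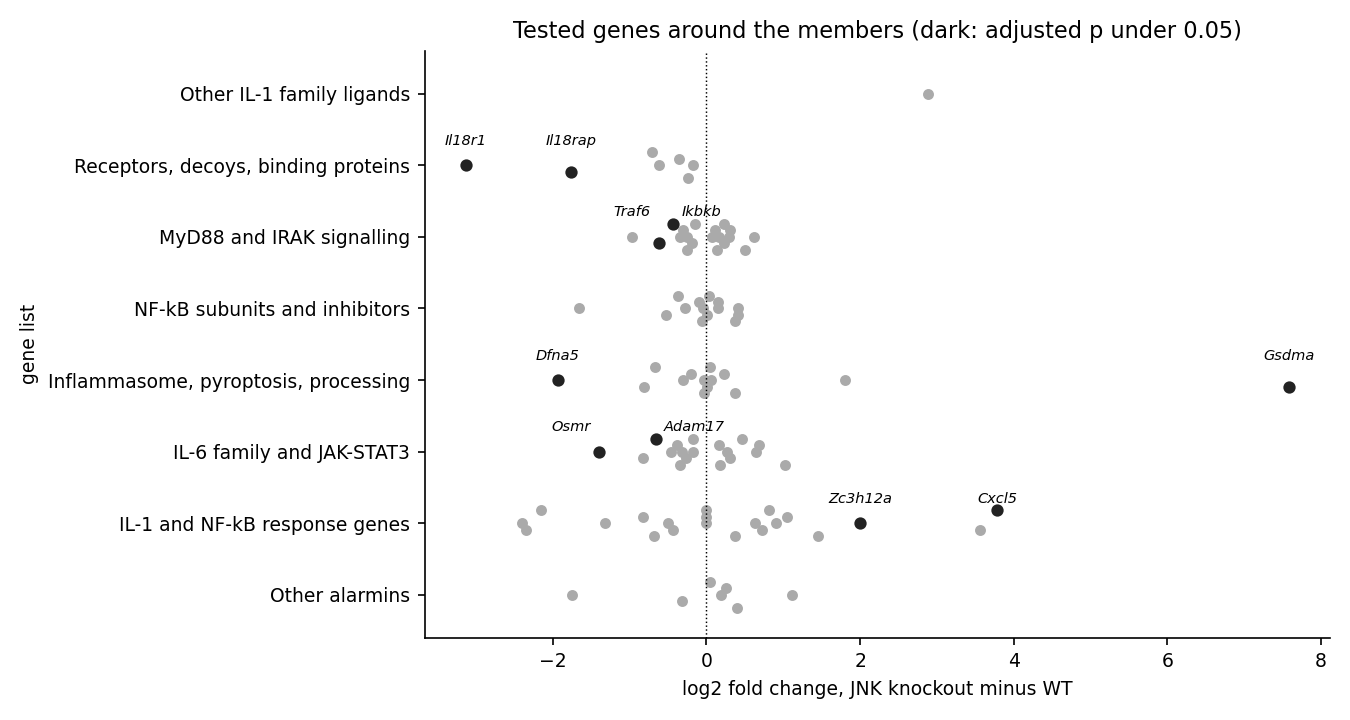
Log2 fold change (knockout minus WT) of each tested gene in the 8 lists around the members. Each point is a gene, and dark points with names passed an adjusted p of 0.05. Il18r1 and Il18rap lie lowest among the called genes of the receptor list, and Gsdma, whose fitted value rests on 3 WT reads, is the point farthest right.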

How the data were processed

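Per the submitters' processing notes, reads were trimmed with cutadapt and the authors quantified genes with RSEM; the builds named are mm10 and GRCm38. On aligner, annotation release, strand use and versions, nothing is given in the sources used here. Deposited by the authors were expected counts per gene, which share ambiguous reads by a model, and TPM, scaled for length. Expected counts were rounded, filtered with filterByExpr (13058 of 23845 genes kept), scaled by TMM and compared between groups with edgeR 4.0.16 (quasi-likelihood F test, group only, R 4.3.3) over all 13 lines. P-values were adjusted over all genes tested. Log2 fold changes are knockout minus WT, and their SE is approximate (the fold change over the root of the F statistic). CPM use the TMM-scaled libraries. The procedure was tested on simulated data. Positions and promoters are from RefSeq (GRCm38.p6).

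The members and lists were chosen with earlier results of these data known. Named were all members, Mapk8 and Mapk9, per list up to 4 called genes, taken by lowest adjusted p (or, with none called, the 2 of lowest p), and the 2 genes most like each member. Other genes were named after their values were seen. The alternatives were other scalings, filters and tests (DESeq2 1.42.0, limma 3.58.1), log2(TPM + 1) and log2(TPM + 0.1), WT replicates 4 and 5 summed (their titles share a number), each line left out, and, added after the data were seen, knockout replicate 2 and WT replicate 3 left out together. Libraries held at least 38298602 counts, and limits at 0 reads cover counting error only.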

Additional observations from a re-analysis of the deposited data

Results flagged for a closer look

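Within 17 combinations of a member and a group, 5 held a line whose gap to the next line was large against the range of its group by Dixon's criterion. For roughly normal values chance alone gives about 1 in 20, a rate that does not carry over to CPM, which are skewed towards high values. On log2 CPM, 2 of 16 such combinations of the tested members passed the criterion, Il1rn in WT replicate 2 and, on the low side, Il1r1 in knockout replicate 2, so 4 of the 5 below rest on the linear scale. Il1a was 190.2 CPM in knockout replicate 1, against 11.6 CPM in the next knockout line. Tslp was 105.4 CPM in WT replicate 4, against 23.0 CPM in the next WT line. Il33 was 14.9 CPM in WT replicate 5, against 3.14 CPM in the next. Il1rn was 34.8 CPM in WT replicate 2, against 10.2 CPM in the next. Il6 was 3.66 CPM in knockout replicate 3, against 0.514 CPM in the next knockout line.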

How the results depend on the processing

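The count of genes called higher was 566 and lower 545. With DESeq2 it was 1359 and 1095, on log2(TPM + 1) 256 and 931, on log2(TPM + 0.1) 256 and 873, and without a filter on TPM 227 higher. Leaving out 1 line gave 324 to 649 higher and 316 to 592 lower. The higher count fell to 374 without WT replicate 1 and to 329, 375 and 324 without knockout replicates 1, 3 and 7. It fell nearly as far, to 384, 395 and 398, without WT replicates 5, 4 and 6, and rose only without knockout replicate 6 (649). The lower count fell to 316 and 326 without knockout replicates 1 and 7, and to 375 and 384 without knockout replicate 3 and WT replicate 5. It rose without knockout replicates 2 and 6 (592 and 579). Of the members, 2 higher and 2 lower were called. With limma-voom 0 were higher and 1 (Il1rap) lower. A filter of CPM above 1 in at least 6 lines, log2(TPM + 1) with and without a filter, and log2(TPM + 0.1) each left 1 higher (Il33), since Il1a was not tested in 3 of these and not called in the other. Leaving out 1 line gave 2 to 3 higher and 2 lower. The pathway lists together held 3 higher and 7 lower genes. They held 10 higher with DESeq2, 1 higher in each TPM fit and 3 lower with WT replicates 4 and 5 summed. Leaving out 1 line gave 1 to 3 higher (1 without knockout replicate 1, 3 or 7) and 3 to 8 lower (3 or 4 without WT replicate 1, 2, 4, 5 or 6 or knockout replicate 1, 3, 4, 5 or 7). No member changed direction under any alternative run. On the TPM scale the median of all genes moved to -0.21, -0.23 and, with no filter, -0.06. No paired analysis was possible because the labels give no replicate numbers shared by the groups. Genes with few reads, such as Il1b, are limited by depth. The cause of these shifts was not tested beyond the genes and lines left out.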

Other observations

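Besides Il1f9, the IL-36 genes had few reads, and single lines held much of them. Il1f6, which encodes IL-36α, had 67 reads over the WT and 223 over the knockout lines, of which 85 remain without knockout replicate 1 (34 WT reads without WT replicate 4), with medians of 0.106 and 0.120 CPM. Without a test either, Il1f5, the IL-36 receptor antagonist gene, had 10 and 130 reads (74 knockout reads without replicate 7), Il1f8, the IL-36β gene, 0 and 16 (6 without replicate 7), and Il1f10 0 in both. S100a9, a calgranulin gene, had 2 WT reads and 221 knockout reads with at least 1 read in all 7 knockout lines, and S100a7a had 33 and 399 (15 without WT replicate 1, and 227 without knockout replicate 4). None of these was tested, because too few lines had enough reads. They were chosen after their values were seen. S100a8, from the same list as S100a9, was tested and did not pass (log2 fold change 0.25, adjusted p = 0.77, edgeR). It ranged over 0.637 to 7.40 CPM in WT lines against 2.51 to 6.18 CPM in knockout lines.

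Correlations of log2 CPM were computed for the 28 pairs of tested members within each group, 56 in all, with exact permutation tests. None passed after Benjamini-Hochberg adjustment, and 4 had an unadjusted p under 0.05 for Pearson's r. Il1a and Il33 went together over the 7 knockout lines (r = 0.88, exact permutation p = 0.012, adjusted 0.39; Spearman rho = 0.96, p = 0.0028, adjusted 0.16), with r = 0.57 without the 2 lines farthest from the median of Il1a. Tslp and Il6 did so over the 6 WT lines (r = 0.96, exact permutation p = 0.014, adjusted 0.39; rho = 0.77, p = 0.10, adjusted 0.71), with r = 0.88 without the 2 farthest lines. Over the 6 WT lines Tslp and Il1rap ran opposite (r = -0.84, exact permutation p = 0.042, adjusted 0.56; rho = -0.66, p = 0.17, adjusted 0.75), but r was 0.21 without the 2 farthest lines. The lines left are few and their range is cut, so this value cannot show which lines the relation rests on. Il18 and Il1r1 went together over the WT lines (r = 0.75, exact permutation p = 0.046, adjusted 0.56; rho = 0.71, p = 0.14, adjusted 0.71), with r = -0.05 without the 2 farthest, under the same limit.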
